A study of Mus musculus with 6 samples.

Results

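Cd8-positive T cells were picked from 6 single-cell RNA libraries of leukaemic mouse bone marrow by gates on raw UMIs, the transcript molecules counted once each by a molecular barcode. A cell entered with at least 2 UMIs summed over Cd3d, Cd3e and Cd3g, which encode CD3 chains of the T cell receptor complex, and at least 1 UMI over Cd8a and Cd8b1, which encode both chains of the CD8 coreceptor. It had no UMI of Cd79a, a signalling subunit of the B cell receptor. Barcodes with fewer than 500 detected genes or over 10% mitochondrial UMIs had been dropped first. The gates took 784 of 44672 kept cells (1.76%), out of 58337 barcodes. These 5 gate genes define the cells, so their levels are given as a description only. In GRCm38 Cd8a (chr6:71373427-71379173, plus strand) and Cd8b1 (chr6:71322788-71337494, plus strand) are neighbours, and the 3 Cd3 genes lie together on chromosome 9 between 44969572 and 45009627.

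The marrow came from mice with acute myeloid leukaemia and was flushed and freed of red cells. Per the labels, the driver genes had been put into mouse embryonic stem cells to make the leukaemias. MLL-AF9 (MA9), a fusion oncoprotein of the Mll gene, drove 4 of them, labelled Shp-1 f/f (floxed) or Shp-1 Δ/Δ (deleted) and given PBS or the chemotherapy Arac+Dox. Hoxa9-Meis1 (HM), a pair of homeobox transcription factors, drove the other 2, titled Shp-1 f/f and given PBS or Arac+Dox, although their genotype field names no Shp-1 allele. Shp-1 is the tyrosine phosphatase encoded by Ptpn6, which dampens antigen receptor signals in lymphocytes. The cells in which Shp-1 was deleted, the deleter, doses, times, and the age, sex and strain of the animals are not given in the sources used here, nor is whether animals were pooled. Each group was 1 library, so differences between libraries have no replicate check and no test of them was made. Intervals in brackets are exact 95% intervals that cover counting error only, and values over all 6 libraries follow 1 order: MA9 f/f PBS, MA9 Δ/Δ PBS, MA9 f/f Arac+Dox, MA9 Δ/Δ Arac+Dox, HM f/f PBS and HM f/f Arac+Dox.

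CD8 T cells read peptides held on MHC class I and kill the cell that presents a foreign or altered one with perforin and granzymes, while releasing interferon gamma and chemokines such as Ccl5. Naive CD8 T cells are kept quiet by the transcription factors Tcf7 and Lef1 and recirculate through Ccr7 and S1pr1. Memory CD8 T cells, for which bone marrow is a known home, store Ccl5 transcripts, respond to interleukin 15 through Il2rb and can carry receptors shared with NK cells, such as Klrd1 and Klrk1.

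The members held 119430, 877762, 110497, 653716, 64934 and 4456295 UMIs in all, in 26, 170, 22, 125, 11 and 430 cells. Their median depth was 4140, 3898, 3323, 3730, 4161 and 7458 UMIs per cell, so the members labelled HM f/f Arac+Dox were the deepest. That library held 54.8% of all members and the PBS library labelled HM f/f only 11 cells. Ptpn6 in all kept cells goes against its labels: it stood at 186, 172, 57.7, 43.7, 135 and 113 CPM, counts per 1000000 UMIs. The library labelled MA9 Δ/Δ PBS was thus close to the PBS library labelled MA9 f/f, and both libraries labelled Arac+Dox were lower, so the Shp-1 groups are named by their labels only. The names of the deposited files go against the labels of 2 libraries, MA9 Δ/Δ PBS and MA9 f/f Arac+Dox, as though these had been exchanged. The labels were kept here, and with an exchange the pairs below named for Shp-1 would be pairs of treatment and those named for treatment would be pairs of Shp-1. Between 21 and 37 cell barcodes were shared by each pair of MA9 libraries and by the HM pair, and 0 barcodes were a member in both. Some members carried myeloid transcripts: 4, 22, 3, 19, 2 and 116 of them had at least 3 UMIs over 9 myeloid genes such as Mpo and Cebpe (15.4, 12.9, 13.6, 15.2, 18.2 and 27%), against 0 to 28.8% of B cells. Marked members had median depths of 10803, 10636, 8679, 13150, 15521 and 13677 UMIs against 3849, 3566, 3314, 3349, 3147 and 6543 in the others. They held 23.7 to 49% of the members' UMIs, and their part in the results was not tested beyond the values without them given below.

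Summed over the members of a library, the T cell part of the label held up on T cell genes that the gates did not use. T cells that passed the Cd3 and Cd79a gates without a Cd8 UMI held such genes as well. A list of 22 of them summed to 6623, 5849, 8082, 5222, 4173 and 3905 CPM in members. In T cells without Cd8 UMIs the sums were 7309, 6534, 4334, 3522, 5822 and 1922 CPM. Trac, the constant region of the T cell receptor alpha chain, stood at 243, 286, 443, 265, 185 and 296 CPM in members. It stood at 0.575 to 20.4 CPM in all other kept cells, which include T cells without Cd8 UMIs. Ms4a4b, a membrane protein of T cells, stood at 996, 1179, 1539, 1121, 1217 and 418 CPM and was found in 23, 164, 20, 124, 10 and 371 members. By the ratio of its level in members to that in all other kept cells, the gene with the highest lowest ratio was Skap1, an adaptor of the T cell receptor, at 18.9-fold to 692-fold. Thy1 (18.5-fold to 804-fold), the T cell receptor genes Trbc2, Trac and Trbc1, the adaptor Lat, Cd2, and the lymphocyte GTPases Gimap4 and Gimap6 were also among the 15 genes with the highest lowest ratio. Among the 15 were also Klrd1, the partner chain of the NKG2 receptors (16.1-fold to 240.1-fold), Ctla2a, a protease inhibitor, and Ccl5 (9.35-fold to 1094-fold). For each of the 15 the lowest ratio was in the Arac+Dox library labelled HM f/f, where other kept cells held 20.4 CPM of Trac.

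Cd4, Foxp3, Ncr1 and Trdc, which define other lymphocytes, were found in few members. The marker lists of CD4 and regulatory, gamma-delta, NK and innate-like T cells nonetheless held UMIs in each library. Cd4 had a UMI in 12 members and stood at 8.37, 4.56, 0, 6.12, 46.2 and 2.47 CPM, against 52, 87.7, 29.7, 38.4, 71.9 and 32.1 in T cells without Cd8 UMIs. Foxp3, the factor of regulatory T cells, was found in 0, 0, 0, 2, 0 and 1 members and Ncr1, which marks NK cells, in 1, 0, 0, 1, 0 and 0. The 9 CD4 and regulatory T cell markers, led by Ikzf2, summed to 360, 206, 190, 257, 61.6 and 80.1 CPM in members. T cells without Cd8 held 761, 917, 874, 603, 708 and 279 CPM, and 12, 64, 9, 56, 2 and 143 members had a UMI of the list. Trdc, the delta chain constant region, was found in 2, 2, 0, 2, 0 and 7 members. Summed over its list, the gamma-delta T cell markers held 309.8, 84.3, 199, 85.7, 30.8 and 22.7 CPM against 429, 211, 262, 326, 267 and 51.5 in T cells without Cd8. A UMI of that list was found in 13, 41, 8, 29, 2 and 57 members. Klrb1c, an NK cell receptor also found on NKT cells, stood out in the PBS library labelled MA9 f/f, with 268, 42.2, 54.3, 29.1, 77 and 5.16 CPM and 12, 25, 4, 11, 2 and 14 members with a UMI. The 12 NK cell markers summed to 2822, 1312, 1647, 834, 1339.8 and 1626 CPM in members and 2673, 1719, 3353, 1779, 1787 and 2073 CPM in T cells without Cd8, so members were the higher of both in the PBS library labelled MA9 f/f and the lower in the other 5. Without marked members they summed to 2220.0, 931, 1625, 588, 1412 and 1125 CPM. The 7 markers of NKT and innate-like T cells summed to 979.7, 464, 489, 525, 262 and 264 CPM in members and 1236, 927, 499, 633, 637 and 243 CPM in T cells without Cd8. The part of such cells in the results was not tested. Neutrophil markers were present as well: the 13 genes of that list summed to 36674, 5721, 34318, 6396, 129393 and 51398 CPM in members, with S100a8 and S100a9 in every library, and to 2321, 542, 949, 918, 20411 and 17400.4 CPM without marked members.

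Most members passed the gates by more than the minimum. Of the 784, 46 had just 2 Cd3 UMIs and 163 (20.8%) just 1 Cd8 UMI. In the Arac+Dox library labelled HM f/f, 29 members with just 2 Cd3 UMIs held 27.1 CPM of Trac and 25.4 CPM of Cd2. They held 44300 CPM of S100a8. The 85 members there with just 1 Cd8 UMI held 136 CPM of Trac, against 353 CPM in the 268 with both Cd8 chains. The T cell label is thus less sure for members near the gates in that library. Just outside lay 69 cells with 1 Cd3 UMI, 12 with Cd79a, and 832 T cells with no Cd8 UMI. A further 151 cells had a Cd8 UMI but no Cd3 UMI. Most of these, and most of the 69, lay in the Arac+Dox library labelled HM f/f. There the cells with no Cd3 UMI held 5.80 CPM of Trac and 46831 CPM of S100a8. Those with 1 Cd3 UMI held 17.9 CPM of Trac and 55363 CPM of S100a8. Whether such cells bear on the share of members in that library was not tested. Both Cd8 chains were seen in 475 members (60.6%), Cd8b1 alone in 191 and Cd8a alone in 118. Cd8b1, the beta chain of the classical heterodimer, stood at 259.6, 519.5, 489, 496, 277 and 336 CPM. Cd8a stood at 327, 302, 471, 311, 262 and 165 CPM. Only in the PBS library labelled MA9 f/f did Cd8a give more UMIs than Cd8b1, and there 12 of 26 members showed Cd8a alone. Per library, 12, 32, 5, 21, 4 and 44 members showed Cd8a alone, at these depths with no check for a missed Cd8b1 transcript.

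The share of Cd8 T cells in the marrow was highest in the Arac+Dox library labelled HM f/f, and in MA9 it was higher in both libraries labelled Δ/Δ than in both labelled f/f. It was 0.302% (0.197 to 0.442; 26 of 8614 cells) in the PBS library labelled MA9 f/f and 0.226% (0.141 to 0.341; 22 of 9750 cells) in the Arac+Dox library labelled MA9 f/f. It was 1.80% (1.54 to 2.09; 170 of 9431 cells) in the PBS library labelled MA9 Δ/Δ and 1.32% (1.10 to 1.57; 125 of 9446 cells) in the Arac+Dox library labelled MA9 Δ/Δ. The HM libraries held 0.399% (0.199 to 0.713; 11 of 2755 cells) with PBS and 9.20% (8.38 to 10.1; 430 of 4676 cells) with Arac+Dox. The intervals of the 2 MA9 f/f labels overlapped each other and lay below those of the 2 Δ/Δ labels. As ratios of shares, Δ/Δ over f/f was 5.97 (3.94 to 9.41) for the PBS libraries and 5.86 (3.71 to 9.69) for those given Arac+Dox. Arac+Dox over PBS was 0.748 (0.404 to 1.37) under the f/f label and 0.734 (0.578 to 0.930) under the Δ/Δ label in MA9, and 23 (12.7 to 46.5) in HM.

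A gate of single UMIs depends on depth, so each cell was also thinned to 1500 UMIs. The shares became 0.158, 1.16, 0.177, 0.802, 0.0771 and 3.38%, from 13, 98, 16, 69, 2 and 152 cells, with 407, 957, 707, 845, 160 and 180 shallower cells left out, and both Δ/Δ labels still lay above both f/f labels. T cells passing the Cd3 gate numbered 69, 368, 51, 216, 43 and 869, and Cd8 T cells were 37.7, 46.2, 43.1, 57.9, 25.6 and 49.5% of them. Their exact intervals reached from 13.5% to 64.5%, and within T cells the 2 lowest shares were those labelled HM f/f PBS and MA9 f/f PBS. Without marked members the share labelled HM f/f Arac+Dox was 6.72%. In HM the PBS library kept only 22.1% of its barcodes, against 87.2% with Arac+Dox, so the share rests on different losses of cells.

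**Figure D1:**
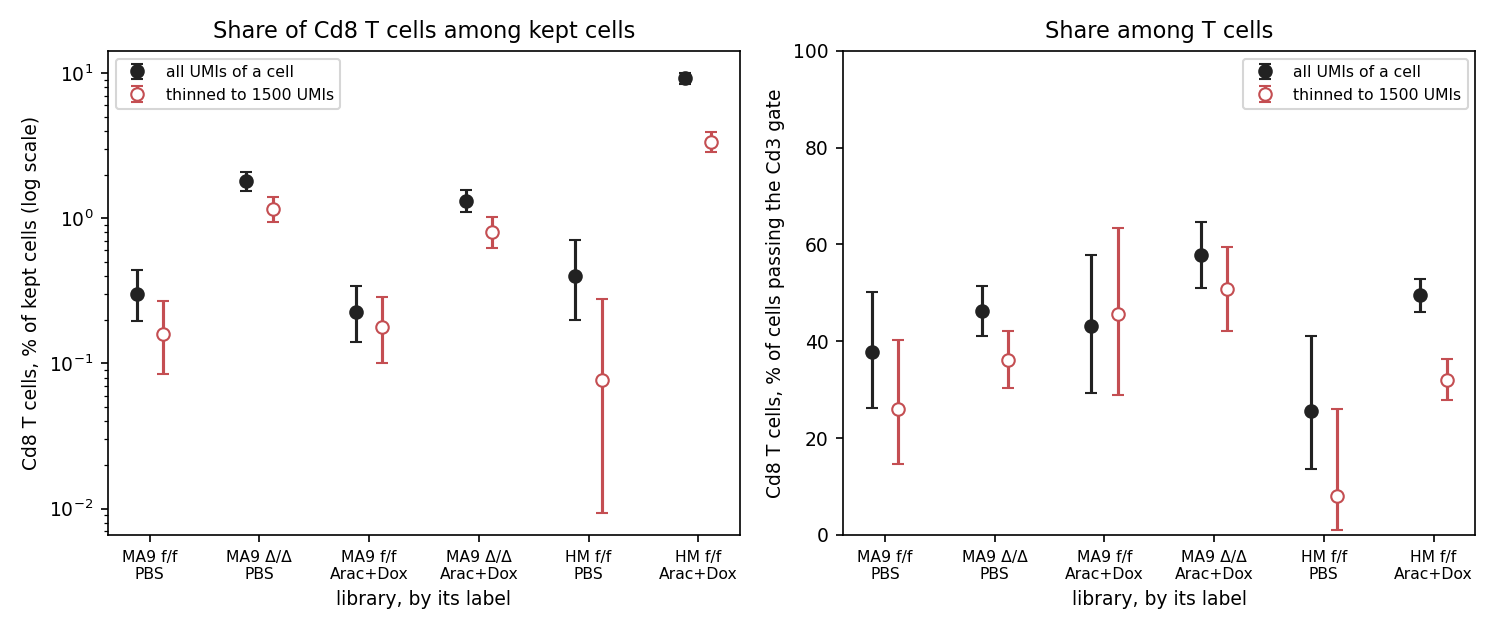
Share of Cd8 T cells among kept cells (left, log scale) and among cells passing the Cd3 gate (right, 0 to 100%) in the 6 libraries by their labels. Black points use all UMIs and open red points cells thinned to 1500 UMIs, bars are exact 95% binomial intervals, and among kept cells the Arac+Dox library labelled HM f/f is highest at 9.20%.

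Ccl5, a chemokine that attracts other T cells and is encoded at chr11:83525778-83530518 on the minus strand, gave the most UMIs of the effector list in the members. It stood at 9562, 3925, 7331, 2952, 1540.0 and 1137 CPM, and at 6.70 to 40.2 CPM in other kept cells of the first 5 libraries but 122 CPM in those of the last. Both libraries labelled MA9 f/f were above both labelled MA9 Δ/Δ, and the HM libraries were lowest. Nkg7, a cytotoxic granule protein, stood at 1699.7, 1017, 1303, 843, 1001 and 721 CPM in the same members. Ctsw, a protease of cytotoxic cells, stood at 343, 259.8, 326, 222, 46.2 and 140.3 CPM, lowest in the 11 members labelled HM f/f PBS. Granzyme B transcripts (Gzmb) reached 234, 90, 308, 136, 123 and 137 CPM and those of perforin (Prf1) 83.7, 71.8, 72.4, 42.8, 30.8 and 12.1 CPM. Gzma was held by few cells, 1, 18, 2, 3, 0 and 15 members, and Gzmk by 4, 9, 10, 12, 2 and 11. Gzmk stood at 190.1 CPM in the Arac+Dox library labelled MA9 f/f, where 10 of 22 members carried it, and at 33.5 CPM or less in the other 5. Xcl1, a chemokine for cross-presenting dendritic cells, followed another order, 368, 82, 181, 35.2, 154 and 493 CPM, with the highest level in the Arac+Dox library labelled HM f/f.

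The effector list of 22 genes summed to 13414, 6214, 10860, 4803, 3604 and 3012 CPM, and to 16133, 7904, 13130, 6175, 4559 and 3749.7 without marked members. Several genes of naive and central memory cells followed the opposite order in MA9. Il7r, the survival receptor for interleukin 7, stood at 25.1, 202, 109, 239, 30.8 and 108 CPM, with 2, 73, 3, 60, 1 and 213 members carrying it and 1.68 to 14.2 CPM in other kept cells. Lef1, a factor of naive T cells, stood at 50.2, 124, 72.4, 116, 15.4 and 101 CPM, and its partner Tcf7 at 83.7, 107, 63.4, 151, 46.2 and 150.1 CPM. Ccr7, which guides T cells into lymph nodes, was highest in the Arac+Dox library labelled HM f/f, with 33.5, 76.3, 36.2, 47.4, 15.4 and 165 CPM. Dapl1, a transcript known from naive CD8 T cells, stood at 25.1, 103, 0, 216, 15.4 and 125 CPM and was found in 2, 39, 0, 37, 1 and 125 members, none of them in the Arac+Dox library labelled MA9 f/f. S1pr1, the receptor for exit from tissues, was found in 1, 44, 0, 28, 0 and 198 members. For each of Il7r, Lef1 and Dapl1 both libraries labelled MA9 Δ/Δ were above both labelled MA9 f/f. Klf2, a factor of resting T cells, stood at 209, 647, 262, 479, 246 and 288 CPM in members and at 469.6, 359.9, 667, 333, 493 and 397 CPM in other kept cells, so its level in members is less specific.

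NK-type receptors were spread unevenly. Klrk1, which encodes the activating receptor NKG2D, stood at 276, 116, 371, 68.8, 15.4 and 17.5 CPM. Cd160, a receptor of cytotoxic lymphocytes, stood at 343, 105, 181, 79.5, 30.8 and 36.4 CPM and Klre1 at 309.8, 107, 199, 62.7, 30.8 and 44.9 CPM, each highest in the PBS library labelled MA9 f/f. Klrd1 varied least of the 4, with 209, 169.8, 163, 182, 108 and 149 CPM. Tyrobp and Fcer1g, signalling adaptors of NK and myeloid cells, led the list by level but stood at 75.7, 94.6, 59.3, 80.6, 471 and 209 CPM and 328, 84.5, 71.2, 48.8, 353 and 211 CPM without marked members, against 1918, 1572, 2190.2, 1055, 2539.8 and 1911 CPM of Tyrobp in other kept cells. Il2rb stood at 611, 342, 281, 389, 92.4 and 203 CPM, and Bcl2, which protects lymphocytes from death, at 737, 651, 815, 542, 46.2 and 188 CPM. Bcl2 was over 500 CPM in each MA9 library and under 200 CPM in both HM libraries, with 30.5, 84.1, 20.1, 55.3, 17.3 and 28.5 CPM in other kept cells. The 2 models differ in matrix version and barcode design, so differences of level between MA9 and HM libraries cannot be told apart from these.

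The 18 genes of the checkpoint and exhaustion list summed to 678, 304, 760.2, 429.9, 246 and 299 CPM in members and 631, 461, 511, 329, 513 and 313 CPM in T cells without Cd8, and 22, 122, 21, 92, 8 and 370 members had a UMI of the list. Pdcd1, the inhibitory receptor PD-1, was found in 0, 3, 6, 12, 0 and 2 members and stood at 0, 4.56, 72.4, 30.6, 0 and 0.449 CPM. Lag3 was found in 0, 2, 2, 5, 0 and 5 members, Havcr2 in 0, 0, 3, 6, 1 and 2 and Tigit in 0, 2, 0, 1, 0 and 5. Pdcd1 was most frequent in both MA9 libraries labelled Arac+Dox, where 6 of 22 and 12 of 125 members carried Pdcd1, against 0 of 26 and 3 of 170 with PBS. Tox, a factor of exhausted and memory cells, stood at 50.2, 34.2, 72.4, 50.5, 0 and 13.2 CPM, and Nr4a2, induced by receptor signals, at 276, 63.8, 208, 49, 30.8 and 103 CPM. Cxcr6, a homing receptor of tissue-resident cells, stood at 100.5, 79.7, 335, 78, 15.4 and 16.4 CPM and Rgs1, also of resident cells, at 285, 100.3, 552, 59.7, 108 and 137 CPM, both highest in the Arac+Dox library labelled MA9 f/f.

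**Figure D2:**
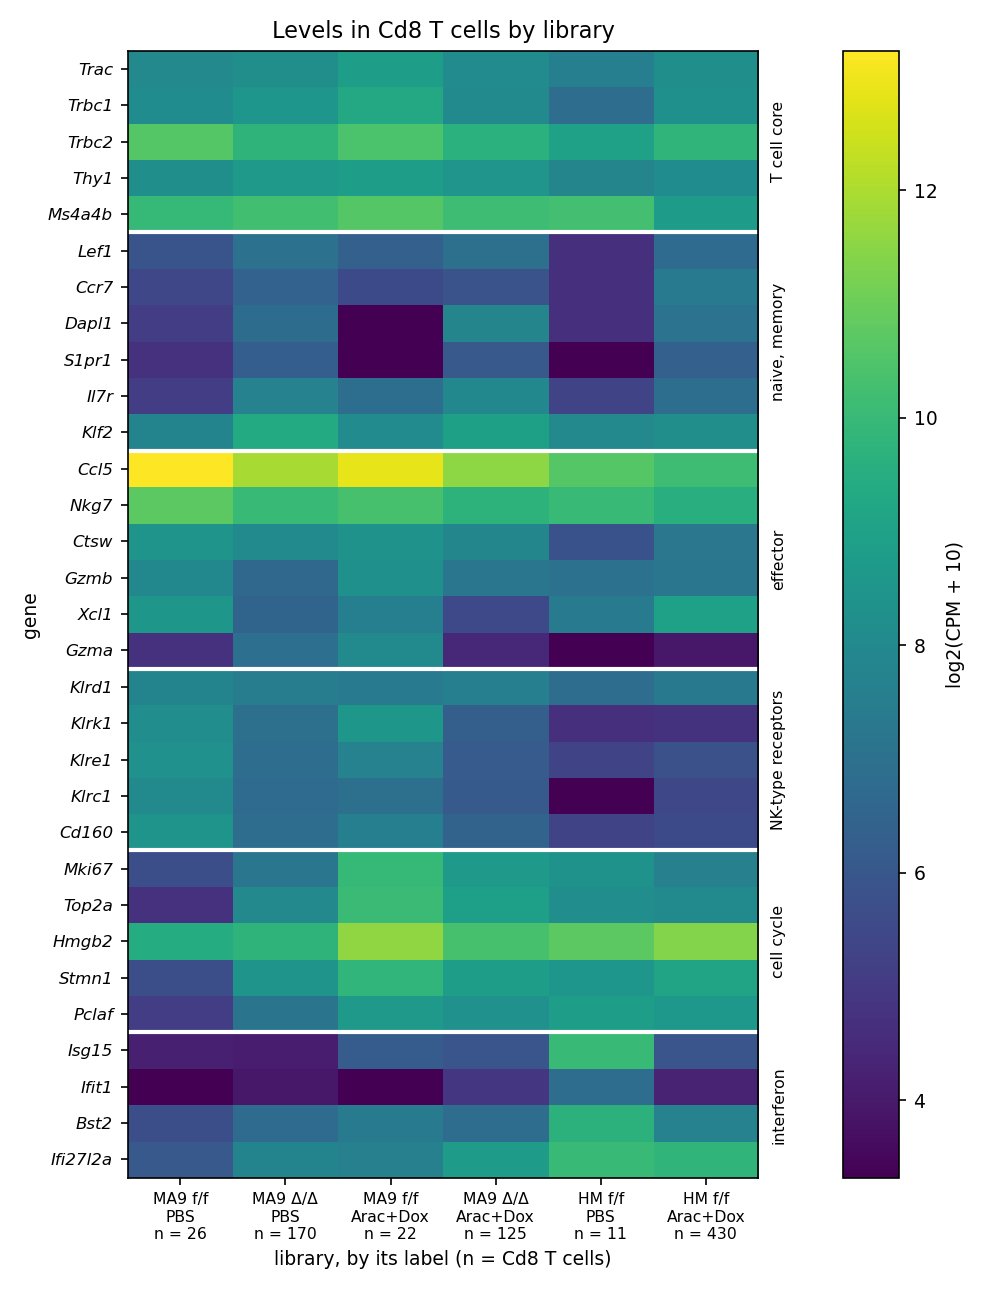
Heat map of named genes in Cd8 T cells by library, coloured by log2(CPM + 10), with the number of members under each library label. Ccl5 and the granule genes are brighter under both MA9 f/f labels, naive-cell genes such as Il7r under both MA9 Δ/Δ labels, and Isg15 under HM f/f PBS at 1001 CPM.

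Members labelled Δ/Δ were next set against those labelled f/f, which addresses Shp-1 as far as the labels hold. With PBS, 106 of 1678 genes at 100 CPM or more were at least 2-fold higher under the Δ/Δ label with an interval that excluded 0, and 134 were lower (6.32% and 7.99%, 14.3% in all). With Arac+Dox these were 123 and 204 of 1683 (7.31% and 12.1%, 19.4% in all). Median-of-ratios scaling moved all log2 ratios of the Arac+Dox pair by 0.23 and turned the split into 192 higher and 137 lower. These counts are a rule of size and not a test, with 26 and 22 cells behind the f/f labels.

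Gene lists were counted by a gentler rule, at least 1.5-fold with an interval that excluded 0 at 50 CPM or more, which 16.5% of 3542 genes met with PBS and 19.4% of 3563 with Arac+Dox. List genes under 50 CPM in both libraries were not counted. Of the 12 naive and central memory genes left, 9 were higher under the Δ/Δ label and 0 lower with PBS (median log2 ratio 1.25, -0.0130 over all genes, of which 7.26% met the rule upwards), and 9 higher and 0 lower with Arac+Dox (median 1.20, -0.13 over all genes, 6.54% upwards). Without marked members these were 6 and 7 of 11. In the 4 MA9 libraries the list summed to 1231, 2879, 1231 and 2709 CPM in members and 1392, 2545, 1338 and 2289 CPM in T cells without Cd8. Both classes were thus higher under the Δ/Δ label. Other kept cells held 1811, 2231, 2126 and 1765 CPM, above members under both f/f labels. For Il7r the log2 ratio was 3.0 (1.43 to 5.30) in the PBS pair and 1.14 (0.29 to 2.12) in the Arac+Dox pair. For Lef1 it was 1.31 (0.14 to 2.78) and 0.68 (-0.37 to 1.95). Satb1, a chromatin organiser of T cells, had 0.45 (-0.18 to 1.15) and 1.35 (0.47 to 2.38). Part of the list is also made by myeloid cells: Ramp1, which stood at 478, 734, 597, 539, 101 and 184 CPM in other kept cells, had 2.20 (1.13 to 3.53) with PBS.

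NK-type receptors were lower under the Δ/Δ label, 10 of 13 genes with PBS (median -1.33) and 4 of 10 with Arac+Dox (median -0.94), with 0 and 0 higher, against 9.23% and 12.9% of all genes lower. For Cd160 the log2 ratio was -1.71 (-2.26 to -1.14) in the PBS pair and -1.19 (-1.96 to -0.36) in the Arac+Dox pair, and for Klrk1 -1.25 (-1.83 to -0.64) and -2.43 (-3.07 to -1.78). Of the effector list 7 of 15 were lower and 1 higher with PBS (median -0.74), and 10 of 17 lower with Arac+Dox (median -1.18). Ccl5 had -1.28 (-1.38 to -1.19) and -1.31 (-1.43 to -1.19). Gzmb had -1.38 (-2.02 to -0.70) and -1.18 (-1.76 to -0.56). The tissue residence list had 4 of 6 genes lower with PBS and 4 of 5 with Arac+Dox, and Cxcr6 had -2.10 (-2.74 to -1.45) in the latter. The effector and residence lists share Xcl1, so they are not independent. T cells without Cd8 in the 4 MA9 libraries held effector sums of 10099, 6225, 4548 and 3155 CPM. Their NK-type receptor sums were 3408, 2076, 3270 and 2014 CPM, and their residence sums 1184, 930, 535 and 433 CPM. Each list was thus lower under the Δ/Δ label in both pairs of that class as well, and the difference is not particular to members.

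The largest ratios in both pairs belonged to neutrophil genes, which other kept cells also held. Camp, an antimicrobial granule peptide, stood at 1624, 22.8, 5312, 15.3, 22161 and 3576 CPM in members and at 16645, 1181, 18712, 910.4, 21150.1 and 10796 CPM in other kept cells. Mpo, the peroxidase of primary granules, went the other way with Arac+Dox, with a log2 ratio of 6.19 (4.33 to 9.23) and with 4373 and 1456 CPM in other kept cells. Without marked members Camp stood at 202, 16.9, 166, 14.7, 559 and 1091 CPM and Mpo at 12.6, 32.1, 23.7, 100.1, 29.4 and 31.7 CPM. A further count took genes at least 2-fold above other kept cells in each library of a pair, a restriction chosen after seeing the data. A gene with no UMI in the members of a library also passed for that library. Under the Δ/Δ label it found 8 higher and 42 lower of 210 (3.81% and 20%, 23.8% in all) with PBS and 5 higher and 58 lower of 205 (2.44% and 28.3%, 30.7% in all) with Arac+Dox. For Arac+Dox over PBS it found 30 higher and 12 lower of 271 (11.1% and 4.43%, 15.5% in all) under the f/f label, 2 higher and 2 lower of 162 (1.23% and 1.23%, 2.47% in all) under the Δ/Δ label and 28 higher and 22 lower of 139 (20.1% and 15.8%, 36.0% in all) in HM.

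Levels of proliferation genes were higher in both MA9 libraries labelled Arac+Dox than in both labelled PBS. Mki67, present only in cycling cells, stood at 41.9, 139, 977, 401, 323 and 190.1 CPM, and Top2a, the topoisomerase of dividing cells, at 16.7, 243, 1077, 476, 277 and 261 CPM. Mki67 was carried by 4, 29, 8, 36, 3 and 126 members. The level in the Arac+Dox library labelled MA9 f/f thus came from 8 of 22 cells, and the level labelled MA9 f/f PBS from 4 of 26. Stmn1, a microtubule regulator, had 41.9, 336, 896, 445, 354 and 542 CPM. Other kept cells had 442, 368, 481, 457, 459.7 and 166 CPM of Mki67 and 487, 465, 485, 609, 269 and 249 CPM of Top2a.

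With Arac+Dox against PBS, 191 of 1758 genes were at least 2-fold higher and 95 lower under the f/f label (10.9% and 5.40%, 16.3% in all), and 17 of 1502 higher and 9 lower under the Δ/Δ label (1.13% and 0.599%, 1.73% in all). By the 1.5-fold rule, met by 12.9% and 8.96% of genes, 15 of 19 cell cycle genes were higher under the f/f label (median log2 ratio 3.39, 0.11 over all genes) and 12 of 18 under the Δ/Δ label (median 0.80, 0.00202 over all genes), with 0 and 0 lower; upwards the rule was met by 8.45% and 5.19% of all genes and downwards by 4.47% and 3.78%. For Mki67 the log2 ratio was 4.55 (3.28 to 6.20) under the f/f label and 1.53 (1.21 to 1.85) under the Δ/Δ label. For the linker histone gene Hist1h1b it was 7.47 (4.97 to 12.78) under the f/f label. Without marked members 13 of 20 and 11 of 18 were higher. Against the f/f label, the Δ/Δ label had 11 of 14 cell cycle genes higher with PBS and 12 of 19 lower with Arac+Dox; these 4 comparisons share libraries. Gzma under the Δ/Δ label had a log2 ratio of -3.22 (-4.47 to -2.18), carried by 18 and 3 members.

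Counted per cell, 1, 30, 8, 33, 3 and 168 members had at least 2 UMIs over 7 mitotic genes, or 3.85, 17.6, 36.4, 26.4, 27.3 and 39.1%. Without marked members this was 0, 10.8, 26.3, 18.9, 11.1 and 26.4%, and among members thinned to 1500 UMIs 0, 3.06, 31.2, 8.70, 0 and 16.4%. B cells, some of which divide in marrow, had 22.4, 9.07, 32.2, 12.5, 16.7 and 14% at median depths of 2991, 1676, 4261, 1338, 3559.5 and 2342 UMIs. Kept cells counted as neither T nor B cells had 48.5, 60.6, 60.9, 75.6, 33.9 and 32.7%. T cells without Cd8, the nearest class, had 9.30, 14.1, 34.5, 19.8, 28.1 and 33.0%, so these shares are not particular to members. The thinned share was highest in the Arac+Dox library labelled MA9 f/f (11% to 58.7%, 5 of 16 cells), and the share in the PBS library labelled MA9 f/f was below that of its B cells. Members counted as mitotic had median depths of 10654, 10001, 8586, 9374, 15437 and 12774 UMIs, above those of all members. No kept cell type is known to lack these genes, and the part of free RNA in these counts was not tested.

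At least 1 Ccl5 UMI was found in 96.2, 81.2, 100, 76, 81.8 and 81.6% of members, against 81.4, 69.2, 62.1, 62.6, 56.2 and 57.2% of T cells without Cd8. It was found in 0, 1.47, 0, 0, 0 and 11.8% of B cells and in 0.388, 2.05, 0.581, 1.29, 0.813 and 22.8% of kept cells counted as neither T nor B cells. The members lay above B cells in each library. A UMI of at least 1 of 6 naive-type genes (Ccr7, Lef1, Tcf7, S1pr1, Dapl1 and Il7r) was found in 42.3, 78.2, 36.4, 78.4, 45.5 and 93.5% of members, against 57.1, 39.7, 59.3, 28.7, 16.7 and 63.2% of B cells and 0.624, 4.21, 1.08, 3.73, 1.03 and 17.1% of kept cells counted as neither T nor B cells. Among members thinned to 1500 UMIs it was 46.2, 60.2, 12.5, 63.8, 0 and 68.4%. In T cells without Cd8 it was 39.5, 69.7, 51.7, 74.7, 40.6 and 74.5%, so there too both MA9 Δ/Δ labels lay above both MA9 f/f labels. Both kinds of transcript were often seen in 1 cell: 10, 101, 8, 68, 3 and 327 members had Ccl5 and a naive-type gene, 15, 37, 14, 27, 6 and 24 Ccl5 alone and 1, 32, 0, 30, 2 and 75 a naive-type gene alone.

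**Figure D3:**
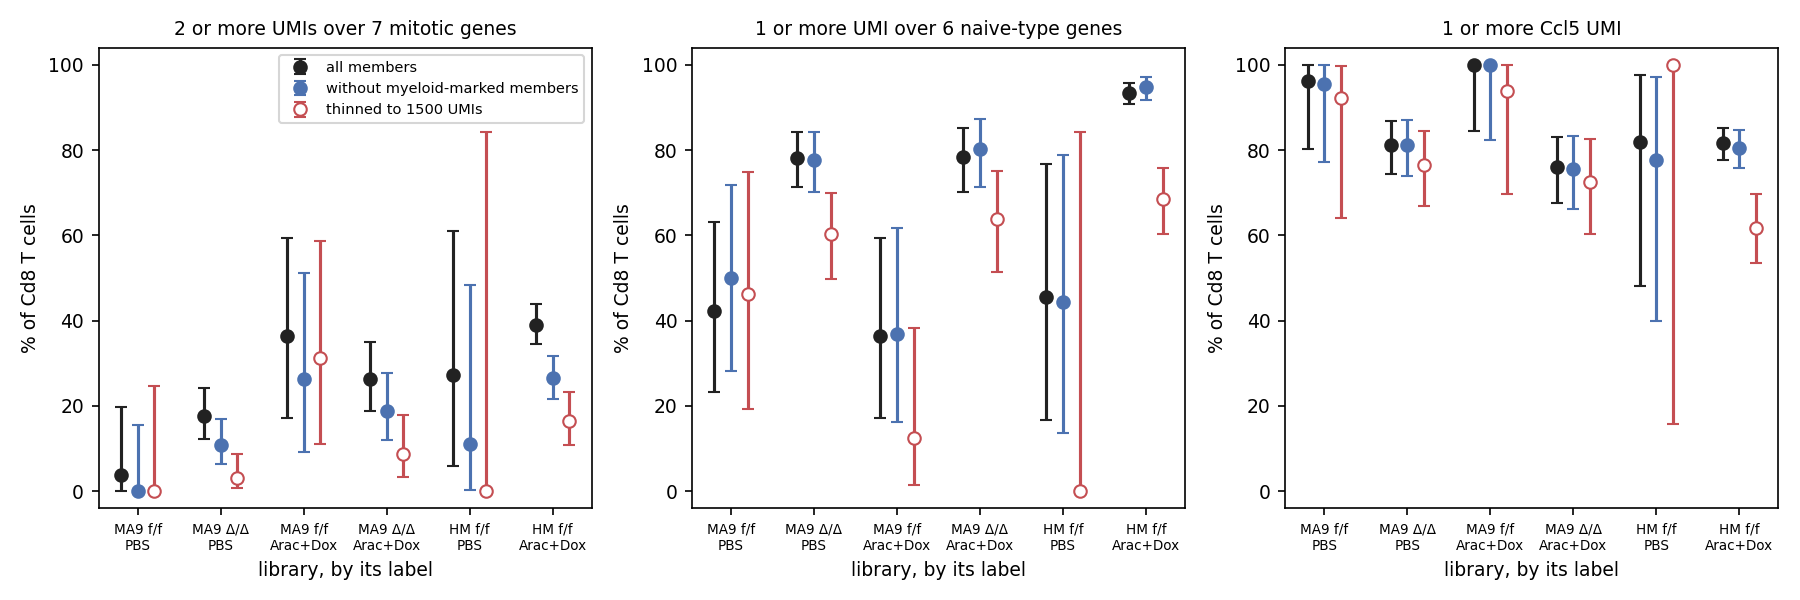
Share of Cd8 T cells with at least 2 UMIs over 7 mitotic genes, with at least 1 UMI over 6 naive-type genes, and with at least 1 Ccl5 UMI, in percent, by library label. Black points are all members, blue points those without myeloid-marked members and open red points thinned members, with exact 95% binomial intervals; Ccl5 is seen in at least 76% of all members in each library.

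Interferon-induced genes marked the members labelled HM f/f PBS. Interferons act through transcription factors that bind the interferon-stimulated response element in the promoters of their targets. Isg15, a ubiquitin-like antiviral protein, stood at 8.37, 6.84, 63.4, 50.5, 1001 and 50.7 CPM, and 8 of the 11 members labelled HM f/f PBS carried it. Bst2, which tethers budding virus, stood at 41.9, 101, 163, 107, 816 and 199.9 CPM. Both were highest in that library. The list of 39 genes summed to 2252, 2472, 3149, 2942, 9656 and 2522 CPM in members, to 3056, 3338, 1979.8, 3015, 14118 and 2618 in T cells without Cd8 and to 759.7, 1172, 864, 889, 7546 and 3281 in other kept cells. In the PBS library labelled HM f/f the sum was higher than in any other library for all 3 kinds of cell, and highest in T cells without Cd8.

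The response element was searched as GAAANNGAAA on both strands in the 250 bases before each gene's start, from RefSeq promoters of GRCm38.p6. It was found in 19 of 31 list genes with a promoter there (61.3%) and in 936 of 27025 genes in all (3.46%). A match describes the letters and not a bound site. Shown are 60 bases around the match for the 4 list genes holding it with the highest level in members labelled HM f/f PBS: Isg15 (chr4:156200856-156200915), Bst2 (chr8:71537565-71537624), Trim30a (chr7:104465195-104465254) and Ifi206 (chr1:173491324-173491383), each 5′ to 3′ on the gene's minus strand, with the matches in capitals.
Isg15: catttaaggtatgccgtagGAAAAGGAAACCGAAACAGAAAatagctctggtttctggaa
Bst2: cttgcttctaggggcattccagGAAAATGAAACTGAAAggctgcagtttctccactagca
Trim30a: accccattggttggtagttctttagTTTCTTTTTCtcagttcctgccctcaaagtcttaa
Ifi206: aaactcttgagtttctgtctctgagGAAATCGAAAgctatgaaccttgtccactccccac
The match in Trim30a reads on the opposite strand, and the run of capitals in Isg15 holds 3 overlapping matches. The 4 genes stood at 1001, 816, 385 and 354 CPM in those members.

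Between the HM libraries, Arac+Dox had 149 of 1538 genes at least 2-fold higher and 297 lower than PBS (29.0%). By the 1.5-fold rule, met by 26.7% of 2933 genes, 32 of 36 interferon genes were lower with Arac+Dox and 0 higher (median log2 ratio -2.50, -0.23 over all genes, of which 17.7% were lower), and 28 of 36 without marked members. For Isg15 the log2 ratio was -4.30 (-4.71 to -3.88). Slfn5, an interferon-induced gene of T cells, had -4.57 (-5.39 to -3.68). Ifi27l2a differed little, with 58.6, 214, 190.1, 425, 1047 and 875 CPM and a log2 ratio of -0.26 (-0.60 to 0.11). Ccr7 and Dapl1 were higher with Arac+Dox, with 3.42 (0.94 to 8.73) and 3.02 (0.53 to 8.32), each against a single UMI with PBS. Ratios in this pair rest on 64934 UMIs of 11 cells, 47.6% of them in marked members, and median-of-ratios scaling shifts them by -0.10.

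The 16 genes of the stress and immediate early list summed to 4588, 4409, 4643, 5359, 5529 and 3881 CPM in members, lowest under the label HM f/f Arac+Dox. Against PBS in HM, 6 of 13 were lower and 1 higher by the 1.5-fold rule, beside 17.7% and 9.0% of all genes. Fosb, part of the AP-1 factor, stood at 394, 354, 272, 545, 508 and 29.8 CPM and its partner Jun at 327, 324, 471, 702, 739 and 139.6 CPM, and other kept cells of that library held 44.1 CPM of Fosb. Nfkbia, the feedback inhibitor of NF-kB, went the other way with 268, 121, 326, 196, 385 and 835 CPM. Cdkn1a, a p53 target, stood at 8.37, 15.9, 0, 30.6, 15.4 and 85.7 CPM in members and 31.4, 99.2, 40.5, 97.9, 98 and 210.4 CPM in other kept cells. B2m, the light chain of MHC class I, was high throughout, with 1901, 1498, 1973, 1651, 3049 and 3331 CPM.

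Members were tested against T cells without Cd8 UMIs, with UMIs summed per library and the 6 libraries as a block in edgeR's quasi-likelihood test, leaving out the gate genes. Few genes passed: 2 were higher and 4 lower of 3500 at a Benjamini-Hochberg adjusted p under 0.05 (0.0571% and 0.114%, 0.171% in all), and 358 had an unadjusted p under 0.05. Tnfrsf4, the costimulatory receptor OX40 of activated CD4 and regulatory T cells, stood at 0, 6.85, 9.08, 24.5, 0 and 4.27 CPM in members and 71.7, 105, 155, 90.5, 51.4 and 86.1 CPM in T cells without Cd8. It fell in members (log2 difference -3.51, SE 0.338, adjusted p = 3.71e-04, lower in 6 of 6 libraries). Ikzf2, a factor of regulatory T cells, stood at 294, 158, 90.8, 132, 15.4 and 24.9 CPM in members and 391, 444, 434, 285, 226 and 67.7 CPM in T cells without Cd8, and also fell (log2 difference -1.31, SE 0.221, adjusted p = 0.0335, 6 of 6). Rora, a factor of innate-like and T helper 17 cells, and Igfbp4, a transcript of naive cells, fell with log2 differences of -1.52 (adjusted p = 0.0136) and -1.39 (adjusted p = 0.00845), each lower in 5 of 6 libraries. Klk8, a secreted protease, rose (log2 difference 1.39, SE 0.197, adjusted p = 0.00947), as did Jaml, an adhesion molecule of T cells (log2 difference 0.92, SE 0.163, adjusted p = 0.0447), both in 6 of 6 libraries.

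Klk8 stood at 92.4, 136, 99.9, 96.6, 46.3 and 73.3 CPM in members and 58.7, 56.2, 17.9, 52.1, 30.9 and 24.5 CPM in T cells without Cd8, with the narrowest gap in ratio in the libraries labelled HM f/f PBS and MA9 f/f PBS. Under the label HM f/f PBS these levels rest on very few Klk8 UMIs, out of 64934 and 97393 UMIs in all. Nkg7 was higher in 6 of 6 libraries but missed the threshold (log2 difference 0.62, SE 0.122, adjusted p = 0.0669), and so did Ccl5 (log2 difference 0.75, SE 0.170, adjusted p = 0.103). Of the effector list 0 of 13 genes tested passed in edgeR (7 at an unadjusted p under 0.05, and 4 called by DESeq2), with a median log2 difference of 0.57 against 0.00706 over all genes. Of the CD4 and regulatory list 2 of 3 fell. T cells without Cd8 had median depths of 3019, 2560, 4206, 2300, 2518 and 4637 UMIs, below members in each library but the Arac+Dox library labelled MA9 f/f, and a missed Cd8 transcript cannot be told apart from an absent one. The count depended on single libraries: it was 0 without the PBS library labelled MA9 Δ/Δ, MA9 Δ/Δ Arac+Dox or HM f/f Arac+Dox (253, 147 and 189 genes at an unadjusted p under 0.05). It was 16, 20 and 30 without the PBS library labelled MA9 f/f, MA9 f/f Arac+Dox or HM f/f PBS, and 107 in DESeq2.

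**Figure D4:**
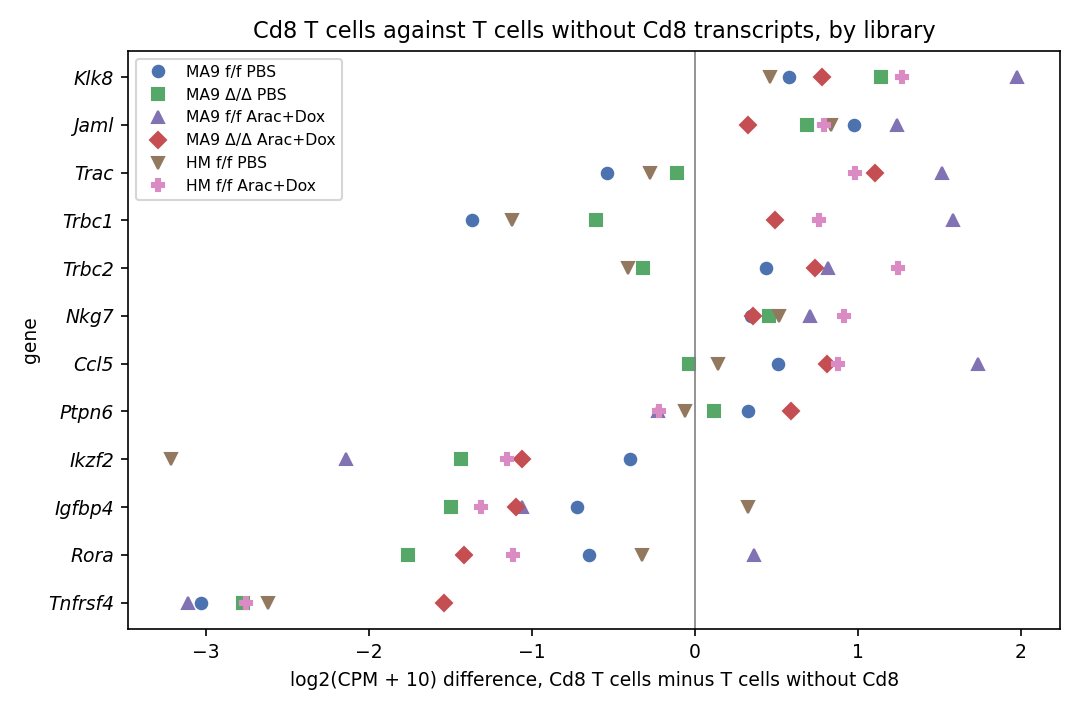
Log2 ratio of CPM in Cd8 T cells to that in T cells without Cd8 UMIs, 1 point per library by label, with a pseudocount of 10 CPM. Shown are the 6 genes that passed the test and Trac, Trbc1, Trbc2, Nkg7, Ccl5 and Ptpn6, which did not pass. Tnfrsf4 and Ikzf2 lie left of 0 and Klk8 and Jaml right of 0 in 6 of 6 libraries, while Rora and Igfbp4 each have 1 library on the other side.

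Within the members, cells with a Ccl5 UMI differed from those without in effector and killer receptor genes. The test was the same, in the 3 libraries with at least 10 cells of each kind (labelled MA9 Δ/Δ PBS, MA9 Δ/Δ Arac+Dox and HM f/f Arac+Dox, in which order values are given), with Ccl5 and the gate genes left out. In edgeR's quasi-likelihood test 46 genes rose and 9 fell of 5958 at an adjusted p under 0.05 (0.772% and 0.151%, 0.923% in all). Ifng, which encodes interferon gamma, stood at 66.3, 35.4 and 18.2 CPM in Ccl5-positive members and had 0 UMIs in Ccl5-negative members of all 3 libraries, so it was at least 3.60-fold, 1.67-fold and 4.01-fold higher (adjusted p = 7.25e-05). Gzmb stood at 110.1, 167 and 154 CPM in Ccl5-positive and 6.11, 28.2 and 40.9 CPM in Ccl5-negative members and rose (log2 difference 2.27, SE 0.262, adjusted p = 1.37e-06). Within each of the 3 libraries Gzmb was higher in the Ccl5-positive members.

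Of the effector list 9 of 13 genes tested rose, with a median log2 difference of 1.42 against 0.00120 over all genes. They included Nkg7, Ctsw, Xcl1, the chemokine Ccl3 and granzyme M (Gzmm, adjusted p = 5.14e-06). Gzmm stood at 87.5, 45.2 and 97 CPM in Ccl5-positive and 0, 0 and 16.7 CPM in Ccl5-negative members, with 0 UMIs in the negative members of both MA9 libraries, where it was at least 4.75-fold and 2.13-fold higher. DESeq2 called 3 of the effector genes and 4 of the NK-type receptors. Of the NK-type receptors 5 of 9 rose (median 1.88). Klre1, which pairs with other killer lectin receptors, stood at 131, 78.7 and 51.5 CPM in Ccl5-positive and 6.11, 7.04 and 7.58 CPM in Ccl5-negative members (log2 difference 3.28, SE 0.400, adjusted p = 3.28e-06). Klrk1 stood at 144, 88.5 and 20.1 CPM in Ccl5-positive and 0, 0 and 3.03 CPM in Ccl5-negative members, at least 7.82-fold and 4.17-fold higher in the MA9 libraries, whose negative members had 0 UMIs. Klrc1, Klrc2 and Cd160 also rose (adjusted p = 2.86e-04, 7.25e-05 and 0.00104), Cd160 with a log2 difference of 1.88. Klrc2 had 0 UMIs in negative members labelled MA9 Δ/Δ PBS (at least 4.98-fold higher) and Klrc1 in those labelled MA9 Δ/Δ Arac+Dox (at least 3.62-fold higher). Each of these genes was higher in 3 of 3 libraries.

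Genes of the memory and residence lists followed: 8 of 18 and 3 of 5 rose. The 8 include S100a6 and Ly6c2, and Ly6c2 is also on the monocyte marker list. Other kept cells of the 3 libraries held 4689, 4332 and 12638.5 CPM of the memory list, against 5159, 5305 and 6857 CPM in all members. The rise is thus not specific to a memory state, and the part of myeloid transcripts in it was not tested. DESeq2 called 2 of the memory and 0 of the residence genes. Il2rb stood at 385, 447 and 212 CPM in Ccl5-positive and 165, 190.2 and 153 CPM in Ccl5-negative members (log2 difference 0.90, SE 0.167, adjusted p = 0.00155). Cxcr3, a receptor for interferon-induced chemokines, and Il18r1, the receptor for interleukin 18, rose with log2 differences of 1.41 and 1.48. Serpina3g and Serpinb6b, protease inhibitors of effector cells, rose too (adjusted p = 4.32e-04 and 0.00130), and were at least 3.37-fold and 2.45-fold higher in the PBS library labelled MA9 Δ/Δ, with 0 UMIs in its negative members. In all, 3 of 14 naive and central memory genes fell (median -0.44), of which DESeq2 called 1. Lef1 stood at 100.2, 98.4 and 91.7 CPM in Ccl5-positive and 232, 183 and 159 CPM in Ccl5-negative members (log2 difference -0.89, SE 0.180, adjusted p = 0.00548). Dapl1 stood at 76.2, 161 and 119 CPM in Ccl5-positive and 219.9, 416 and 161 CPM in Ccl5-negative members (log2 difference -0.92, SE 0.190, adjusted p = 0.00661). Igfbp4 fell most of the 3, with 21.2, 35.4 and 35.1 CPM in Ccl5-positive and 128, 119.7 and 98.5 CPM in Ccl5-negative members (log2 difference -1.71, SE 0.248, adjusted p = 4.87e-05). Id3, a repressor that favours naive and memory cells, and Il6ra, the interleukin 6 receptor, fell as well, with log2 differences of -1.26 and -1.16.

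No gene of the cell cycle, interferon, glycolysis and checkpoint lists passed in edgeR, 0 of 20, 30, 17 and 6 tested. At an unadjusted p under 0.05 there were 0, 0, 1 and 1, and DESeq2 called 0 of each. Neutrophil markers did: 4 of 9 rose in Ccl5-positive members, S100a8 with log2 difference 1.83, SE 0.259, adjusted p = 3.48e-05 and S100a9 with log2 difference 1.84, SE 0.287, adjusted p = 1.17e-04. Ccl5-positive members had median depths of 3991, 3857 and 8163 UMIs against 3599.5, 3166 and 4937. Without marked members 40 genes rose and 24 fell, 30 and 7 of them the same genes as with all members, and S100a8 and S100a9 no longer passed (log2 differences -0.0470 and -0.0841). With members thinned to 1500 UMIs 15 rose and 3 fell of 1013 tested, and DESeq2 called 13 and 1. Without the PBS library labelled MA9 Δ/Δ 28 rose and 4 fell.

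**Figure D5:**
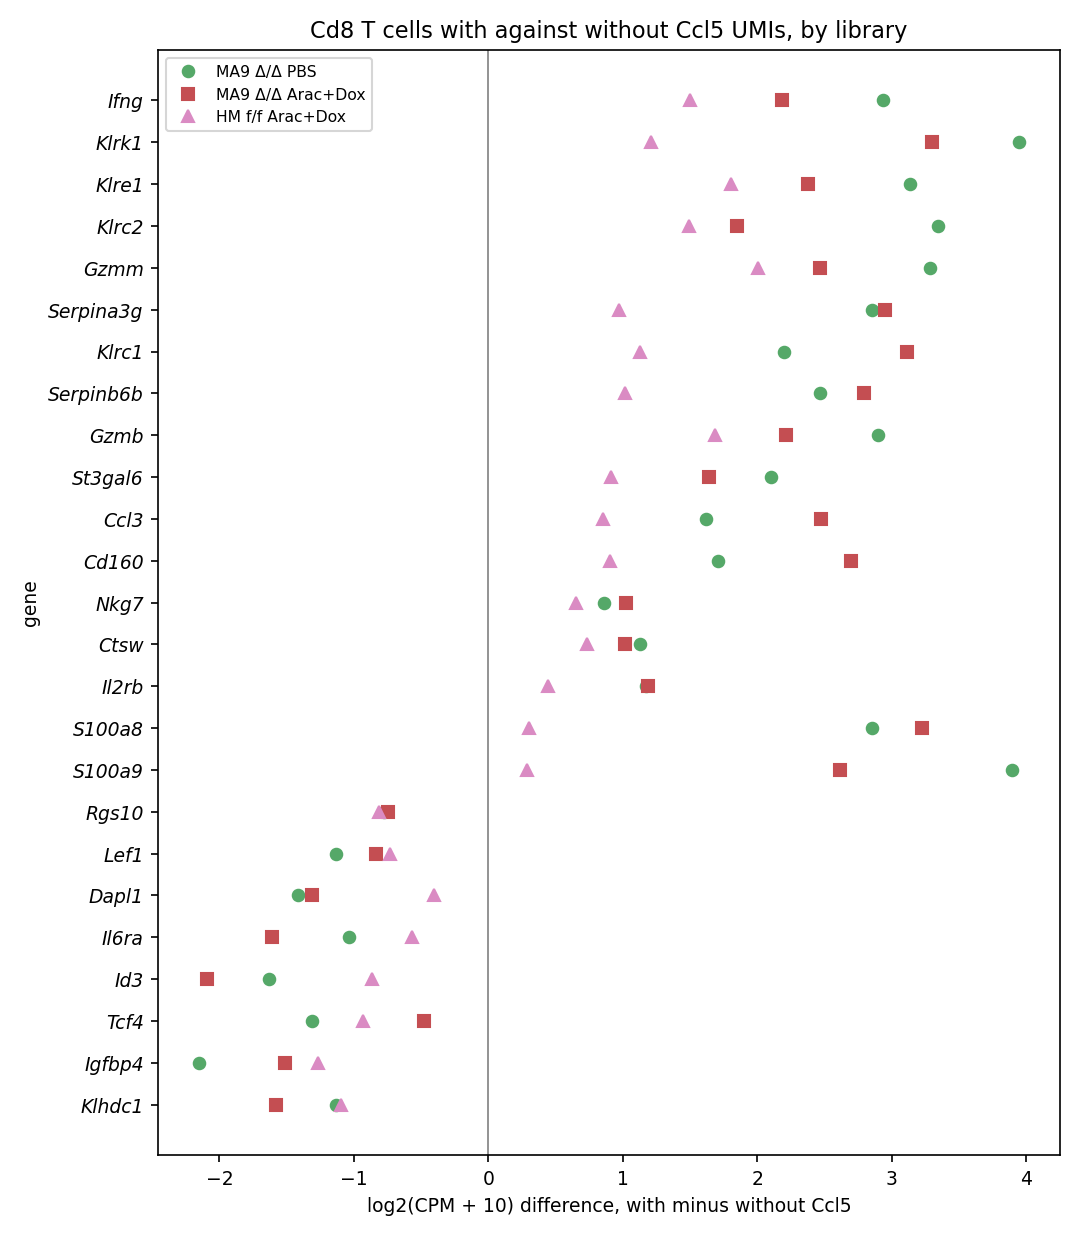
Log2 ratio of CPM in Ccl5-positive to Ccl5-negative Cd8 T cells for named genes that passed the test, 1 point for each of the 3 libraries fitted, with a pseudocount of 10 CPM. Granzyme and killer receptor genes such as Gzmb and Klre1 lie right of 0 and Lef1, Dapl1 and Igfbp4 left of 0 in 3 of 3 libraries.

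Ptpn6, at chr6:124720707-124738714 on the minus strand and named in the labels as the deleted gene, was measured in members of each library. It stood at 92.1, 137, 54.3, 116, 108 and 70.2 CPM and was found in 9, 66, 5, 52, 5 and 166 members. The intervals were 46 to 165, 113 to 163, 19.9 to 118, 91.6 to 146, 43.3 to 222 and 62.7 to 78.5 CPM. Members labelled Δ/Δ were thus not lower than those labelled f/f, with PBS or with Arac+Dox, and 3′ reads need not cover the deleted part. It did not pass against T cells without Cd8 (log2 difference 0.17, SE 0.711, adjusted p = 0.9996) or between Ccl5-positive and Ccl5-negative members (log2 difference -0.27, SE 0.200, adjusted p = 0.910). Pfkp, the platelet-type phosphofructokinase named in the series title, stood at 92.1, 94.6, 127, 125, 108 and 54.3 CPM in members and 32, 44.6, 38.9, 62.8, 36.3 and 31.8 CPM in other kept cells. It did not pass either test (adjusted p = 0.465 and 0.197). Ldha, the lactate-forming dehydrogenase, stood at 360.0, 452, 253, 454, 293 and 359.9 CPM, and by the 1.5-fold rule 0 and 2 glycolysis genes were higher under the Δ/Δ label with PBS and Arac+Dox, of 12 and 13 measured, and 1 and 0 were lower. Over all genes 7.26% and 6.54% were higher, and 9.23% and 12.9% lower.

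T cell receptor V segments were read in few members, as 3′ libraries rarely reach them. A Trbv segment was seen in 4, 11, 2, 12, 1 and 84 members and a Trav segment in 2, 15, 2, 7, 0 and 73. In the Arac+Dox library labelled HM f/f the 84 members with a Trbv UMI spread over 20 segments, the most frequent in 20. In the Arac+Dox library labelled MA9 Δ/Δ the most frequent was in 5 of 12. These counts are of segments with a captured UMI and say nothing of clones.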

How the data were processed

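Single cells of mouse bone marrow were read in 6 libraries of the Chromium Single Cell 3′ kind (v2 kit, per the labels' protocols). The authors deposited raw UMI counts per gene and barcode, made with Cell Ranger 3.0.2 on mm10 per the submitters' processing notes. MA9 and HM files differ in barcode length and in features listed (31053 and 32285), and only the MA9 headers give a software version, so the 30406 gene identifiers in both were used. The libraries held 29347365 to 105272403 UMIs. Levels are UMIs summed over members and scaled to 1000000.

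The members and gene lists were chosen with earlier results of these data known, and 2 list genes were not matched in the files. Groups come from the labels, with 1 library each, and pairs of libraries were compared by the ratio of counts with exact intervals only. Counts summed per library and class were tested with edgeR 4.0.16 (R 4.3.3; TMM factors, filterByExpr, quasi-likelihood, Benjamini-Hochberg adjustment), with the library as a block because both classes came from the same marrow. Standard errors were derived from each p-value and its degrees of freedom. The tests were tested on simulated data first. DESeq2 1.42.0 and the gates, scaling, filters, thinning and single libraries were varied. Doublets were scored with Scrublet in scanpy 1.11.5 and kept, since the gates name no such filter. Its own threshold called under 0.5% in 3 libraries, where the mean of the others was used, and 48 members were then called.

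Named genes are Ptpn6, Pfkp, the gate genes, the 12 largest and 12 smallest called differences with 1 sign in every library, up to 6 genes of each list by level and 4 by fold range and those called in a test, up to 6 largest and 6 smallest ratios of each pair in at least 10% of members, and the 15 genes with the highest lowest ratio to other kept cells. Apart from lists, mitochondrial, ribosomal, globin, immunoglobulin, receptor segment and code-named genes were counted only. Gzmk, Tcf7, S1pr1, Foxp3, Ncr1, Pdcd1, Lag3, Havcr2 and Tigit fall outside that rule and were chosen after their values were seen. Some genes that the rule names are not reported here.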

Additional observations from a re-analysis of the deposited data

Results flagged for a closer look

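The ratio of Cd8 T cell shares, Arac+Dox over PBS, was 23 (12.7 to 46.5) in HM and 0.734 (0.578 to 0.930) under the Δ/Δ label of MA9, so these libraries differed in opposite directions, and 0.748 (0.404 to 1.37) under the f/f label of MA9. The summed level of the tissue residence list in members had ratios of 1.79 (1.32 to 2.49) in HM f/f and 0.652 (0.539 to 0.786) under the Δ/Δ label of MA9, opposite ways, but 1.22 (0.952 to 1.56) under the f/f label of MA9. In HM the list stood at 647 CPM with PBS, from 42 UMIs, and 1159 CPM with Arac+Dox in members. Other kept cells held 786 and 1122 CPM, so the list hardly sets members apart there. The summed level of the cell cycle list, Δ/Δ over f/f in MA9, had a ratio of 2.71 (2.29 to 3.22) among PBS libraries and 0.484 (0.453 to 0.517) among Arac+Dox libraries. With 1 library a group, none of these 3 differences was tested.

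Some barcodes left out by the limits on genes and mitochondrial UMIs passed the same Cd3, Cd8 and Cd79a gates. They were 0.384% of left-out barcodes (5 of 1302) in the Arac+Dox library labelled MA9 Δ/Δ and 1.02% (7 of 688) in the Arac+Dox library labelled HM f/f. A count of 0 would allow up to 0.230% and 0.436%.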

How the results depend on the processing

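Among alternative values of shares and gene counts, 51 stayed near the reported value and 39 moved; among those of single genes, 276 kept their call, 154 kept their direction but missed the threshold and 2 changed sign. Those were S100a8 (-0.0470, adjusted p = 0.964) and S100a9 (-0.0841, adjusted p = 0.927) in the edgeR test of Ccl5-positive members without marked cells. Thinned to 1500 UMIs, the shares of Cd8 T cells moved to 0.158%, 1.16%, 0.802%, 0.0771% and 3.38% in all libraries but the Arac+Dox library labelled MA9 f/f. With at least 2 Cd8 UMIs they were 1.41% and 1.05% in the PBS and Arac+Dox libraries labelled MA9 Δ/Δ and 7.38% in the Arac+Dox library labelled HM f/f, which held 6.72% without marked members.

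The count of 6 genes against T cells without Cd8 was 181 with no filter on low counts, 107 in DESeq2, 10 after thinning, 86 without marked cells (both also drop the PBS library labelled HM f/f) and 0 in edgeR without Scrublet doublets (315 of 2906 at an unadjusted p under 0.05). It ranged from 0 to 30 as single libraries were left out. After thinning, with 1397 genes tested, 0 of the 2 higher and 1 of the 4 lower genes were called again. With at least 3 Cd3 UMIs, 0 genes were higher and 4 lower, and 2 of these were among the 6. The count of 55 genes in Ccl5-positive members was 100 with no filter, 14 in DESeq2 and 18 after thinning, and ranged from 32 to 75 as single libraries were left out. Without the library as a block, edgeR called 1 gene in the first test and 0 in the second (53 and 115 at an unadjusted p under 0.05).

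For pairs of libraries, a minimum of 50 CPM gave 456 and 526 genes for Δ/Δ over f/f with PBS and Arac+Dox and 76 for Arac+Dox over PBS under the Δ/Δ label. A minimum of 200 CPM gave 101 and 147 for Δ/Δ over f/f, and 149, 10 and 213 for Arac+Dox over PBS under the f/f and Δ/Δ labels and in HM. Genes at least 2-fold above other kept cells, or with no UMI in members, gave 50, 63, 42, 4 and 50 in that order. That restriction was chosen after seeing the data. Median-of-ratios scaling gave 122 higher and 122 lower for Δ/Δ over f/f with PBS, and 111 higher and 332 lower in HM. Fewer genes or cells enter under the stricter limits and after thinning; the cause of the other shifts was not tested. The libraries with 11, 22 and 26 members give the widest intervals.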

Other observations

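H2-K1, a heavy chain of MHC class I, was higher in Cd8 T cells than in other kept cells of each library. It stood at 2144, 1914, 2896, 1993, 1540.0 and 1485 CPM in members and at 260.1, 602, 292, 701, 451 and 725 CPM in other kept cells. T cells without Cd8 shared a high level of this class. The 16 genes of the MHC class I list summed to 8909, 7788, 11512, 7672, 8070 and 7949 CPM in members. In T cells without Cd8 they summed to 10698, 10260, 7497, 7279, 13276 and 6285 CPM. Themis, an adaptor of T cell receptor signalling, stood at 67, 80.9, 163, 94.8, 61.6 and 24.9 CPM and was highest in the Arac+Dox library labelled MA9 f/f. Ccr2, a chemokine receptor of inflammatory cells, stood at 251, 86.6, 199, 41.3, 30.8 and 39 CPM, and both libraries labelled MA9 f/f were above both labelled MA9 Δ/Δ.

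Transcripts known from these leukaemias were also counted in members. Hoxa9 stood at 50.2, 45.6, 45.3, 58.1, 0 and 1.35 CPM against 209.8, 174, 202, 209, 12.3 and 7.91 CPM in other kept cells and Meis1 at 41.9, 38.7, 9.05, 24.5, 0 and 0 CPM against 102, 147, 90.3, 78.5, 2.20 and 2.71 CPM. Both were lower in members than in other kept cells of each library, and in other kept cells both were lower in the HM libraries, whose driver is named for these genes, than in the MA9 libraries. The 13 genes of that list summed to 193, 354, 118, 353, 108 and 96.7 CPM in members and 37.8, 57.5, 47.4, 73.3, 88.2 and 69.9 CPM without marked members.

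Xist, the RNA of the inactive X chromosome, was seen in 0, 3, 1, 5, 0 and 0 members, and a transcript of a Y-linked gene in 13, 82, 12, 61, 5 and 306. B cells with Xist numbered 124 of 408 and 164 of 415 in the PBS and Arac+Dox libraries labelled MA9 Δ/Δ, against 3 of 49 and 1 of 59 in those labelled MA9 f/f.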
